A study of Mus musculus with 6 samples.

Results

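Smooth muscle cells and pericytes, the contractile cells that wrap the arterioles, the vasa recta and the peritubular capillaries of the kidney, were described in single-cell suspensions of kidneys from sham and DOCA-salt mice. Members were chosen by their own measured UMIs. A cell barcode was a member when it held at least 1000 UMIs (unique molecular identifiers, each standing for 1 captured RNA molecule), at most 50% mitochondrial UMIs and a UMI of at least 3 of the 6 genes Myh11, Acta2, Tagln, Rgs5, Notch3 and Cspg4. It also had to hold no UMI of Ptprc, Pecam1 or Pdgfra, at most 1 of Lum, and at most 0.2% of its UMIs in the summed proximal tubule genes Lrp2, Slc34a1, Slc5a12 and Slc22a6. The rule took 811 barcodes of the 50910 that passed the first 2 limits and of 76774 in all. Sham mice gave 100, 120 and 128 members, and DOCA-salt mice gave 155, 156 and 152.

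The study compared kidneys of 3 sham and 3 DOCA-salt mice, with 1 droplet library (10x 3′ chemistry) from each mouse. All mice were male C57BL/6 animals of 8 to 10 weeks. DOCA-salt mice lost the left kidney a week before a 50 mg pellet of deoxycorticosterone acetate, a mineralocorticoid receptor agonist, was implanted, and they drank 1% NaCl for 21 days. Sham mice had sham surgery, no pellet and normal water, so that nephrectomy, DOCA and salt cannot be told apart, and every library came from a collagenase II digest passed through a cell strainer.

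Mural cells set the tone of a vessel. In smooth muscle, calcium entry drives myosin light chain kinase and the sliding of smooth muscle myosin (Myh11) on smooth muscle actin (Acta2), and nitric oxide relaxes the cell through soluble guanylate cyclase and cGMP-dependent kinase. Pericytes lie on capillaries, carry the PDGF receptor beta and the regulator Rgs5, and contract less. In the kidney a further member of the lineage, the juxtaglomerular cell of the afferent arteriole, makes renin (Ren1), the enzyme that starts the angiotensin cascade. Volume expansion and mineralocorticoid excess are textbook brakes on renin, and mural cells are also a known source of interstitial matrix in scarred kidneys.

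The label held for part of the members only. Of the 811 members, 524 held a UMI of both Myh11, the defining smooth muscle gene, and Rgs5, the defining pericyte gene, and none of the epithelial gene Epcam. These are called double-positive members below, with 80, 99 and 103 barcodes in the sham mice and 82, 88 and 72 in the DOCA-salt mice, and their median was 6 of the 6 markers. The other 287 members fell into 4 kinds. In order, 107 held 3 or more UMIs of the fibrillar collagen and proteoglycan genes Col1a1, Col1a2 and Dcn (1, 1 and 2 in sham against 32, 32 and 39 in DOCA-salt mice), 56 held the podocyte and parietal cell transcription factor Wt1 (5, 4 and 3 against 15, 12 and 17), 82 held Epcam (8, 7 and 11 against 20, 21 and 15) and 42 held none of these. Myh11 was found in 25.2% of the collagen-rich kind and in 19.6% of the Wt1 kind, while Acta2 was found in 98.1% and 98.2% of them. Among the Wt1 members 100% held the adhesion gene Ncam1 as well, and Rgs5 was found in 8.93%. The double-positive restriction was chosen after the data were seen, so that its tests are added alternatives, and each value below is given with the set it belongs to.

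Members outside the double-positive set made up 25.9%, 25.9% and 37.9% of the member UMIs in the sham mice and 70.4%, 70.4% and 72.9% in the DOCA-salt mice. They were also deeper, with median UMIs per barcode of 5785 to 8475 in sham and 11352 to 17066 in DOCA-salt mice, against 3874 to 5326 and 5332 to 6944 for the double-positive members. The rule's marker threshold fell differently in the groups. Exactly 3 markers, just inside the rule, were found in 11, 15 and 11 sham members and in 50, 45 and 50 DOCA-salt members, and exactly 2 markers, just outside it, in 78, 40 and 63 sham and 100, 117 and 116 DOCA-salt barcodes. Of the barcodes with 3 or more markers, the limit on Ptprc removed 1, 3 and 1 in sham mice and 10, 48 and 18 in DOCA-salt mice. The limit on Pecam1 then removed 12, 12 and 11 against 27, 108 and 45, and that on Pdgfra 2 to 3 against 80 to 147. Library pairs shared 33 to 69 barcode sequences, none of which was a member in both. RNA free in the droplets was not removed from the counts.

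Members were 1.12%, 1.67% and 1.47% of the barcodes kept in the sham libraries and 1.78%, 1.71% and 1.83% in the DOCA-salt libraries. Exact binomial 95% intervals, which cover counting error only, ran from 0.916% to 1.37% in sham mouse 1 and from 1.55% to 2.14% in DOCA-salt mouse 3, the mice with the lowest and highest share. The groups did not overlap. Their means of 1.42% ± 0.274 and 1.77% ± 0.0581 (SD, n = 3 each) gave p = 0.1 in the two-sided exact permutation test over mice, the smallest that 3 against 3 can give. Double-positive members showed the other order, with 0.90%, 1.37% and 1.19% in sham and 0.943%, 0.966% and 0.866% in DOCA-salt mice, and there the groups overlapped (exact permutation p = 0.3). Per 100 endothelial barcodes the double-positive difference was -7.84 (exact permutation p = 0.1, the groups not overlapping). The endothelial share of the barcodes kept itself went from 5.86% ± 0.670 in sham to 7.97% ± 0.932 in DOCA-salt mice, without overlap. Collagen-rich members alone went from 0.0161% ± 0.00618 to 0.396% ± 0.0637. A share in a suspension follows what the digestion released and what the other cells did: per 100 endothelial barcodes the difference in all members pointed down (-1.68, exact permutation p = 0.5). Without barcodes with endothelial or fibroblast marker counts the difference in share over all members was 0.0221 percentage points (exact permutation p = 0.9).

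**Figure D1:**
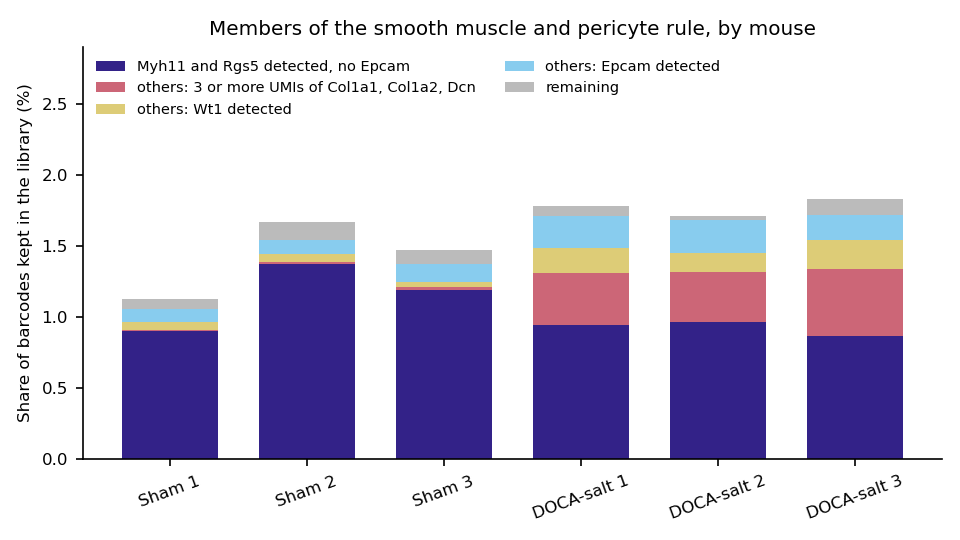
Share of the barcodes kept in each library that met the smooth muscle and pericyte rule, as stacked bars for each of the 6 mice, with colours for the 5 kinds of member. The double-positive kind took 0.866% to 1.37% in every mouse, and the collagen-rich kind reached 0.351% to 0.469% in the DOCA-salt mice and at most 0.0230% in the sham mice.

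The genes of the rule are given as a description, with no test. In all members the level of Myh11, in UMIs per 1000000 UMIs summed over the members of a mouse (CPM), was 2718, 2266 and 1967 in sham and 1096, 894 and 949 in DOCA-salt mice. Its level in the double-positive members was 3350.3, 2861 and 2809.8 against 3103, 2679 and 2845. Rgs5 was 3018, 3808 and 2710.5 against 2259, 1555 and 1829 in all members and 3697, 4869.8 and 3804 against 6607, 4669 and 5624 in the double-positive ones. So both markers were lower in every DOCA-salt mouse over all members, and within the double-positive members Myh11 overlapped between the groups and Rgs5 overlapped at the top of the sham range. The Notch receptor Notch3, which keeps arterial smooth muscle mature, was 890.0, 1141 and 736 against 814, 812 and 945 CPM in the double-positive members.

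Over all members 10517 genes were tested with edgeR's quasi-likelihood test on the summed counts, and 643 (6.11%) were higher and 641 (6.09%) lower in DOCA-salt mice at an adjusted p (Benjamini-Hochberg) of 0.05, together 12.2% of the genes tested. At an unadjusted p under 0.05 there were 2651 (25.2%). Over the double-positive members 6655 genes were tested, 42 (0.631%) were higher and 29 (0.436%) lower, together 1.07% of those tested, and 712 (10.7%) had an unadjusted p under 0.05. Of the 70 double-positive calls that could be tested in all members, 56 passed there in the same direction. The double-positive barcodes are part of the sums of all members, so this overlap is in part built in. Conversely, of the 837 calls in all members that could be tested in the double-positive members, 56 passed there in the same direction. The median log2 change over all genes tested was 0.00 in all members and -0.01 in the double-positive members. These shares stand behind every count of list genes below. The expression filter keeps a gene that is high enough in as many mice as a group holds. A gene near 0 in the sham mice was thus tested, under this filter, only where it was high in the DOCA-salt mice. Its adjusted p is read with that limit. Since the double-positive set requires Myh11 and Rgs5, a cell that had lost either gene would not be in it, which bears on every level of a contractile or pericyte gene below.

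**Figure D2:**
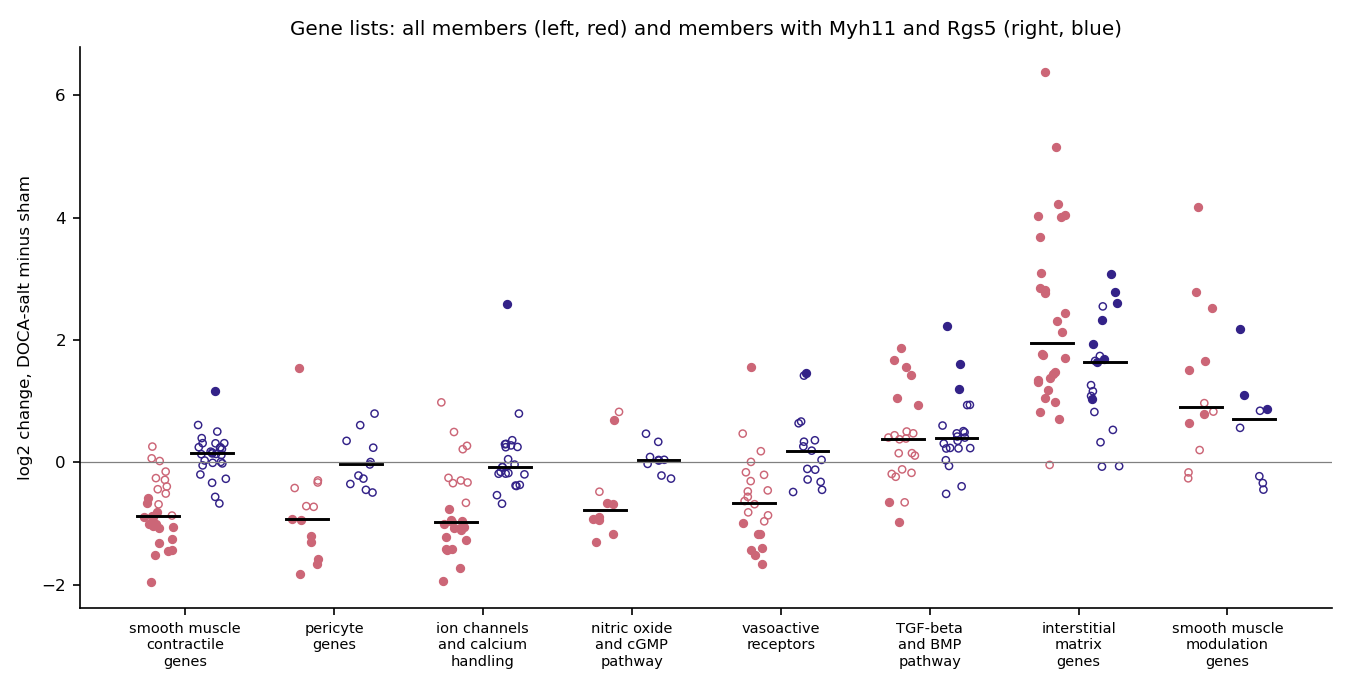
Log2 change (DOCA-salt minus sham) of each tested gene of 8 lists, for all members (red, left) and the double-positive members (blue, right). Filled points passed an adjusted p of 0.05 and black bars are list medians: the contractile, pericyte and ion channel medians lie at -0.88, -0.92 and -0.98 in all members and at 0.14, -0.04 and -0.08 in the double-positive members, while the matrix medians are 1.94 and 1.64.

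Many contractile genes were lower over all members of the DOCA-salt mice, and 1 passed, upwards, in the double-positive ones. Of 28 genes of the contractile apparatus, all tested, 17 fell, none rose and 11 did not pass in all members (12.2% of all genes passed), with a median log2 change of -0.88. Myl9, the regulatory light chain that the kinase phosphorylates, was at 3450.3, 1989 and 2408 CPM in sham and 1313, 1083 and 788 CPM in DOCA-salt mice, a log2 change of -1.44 (SE 0.24, adjusted p = 0.0028). Tpm2, a tropomyosin of the thin filament, was at 2639, 1640.2 and 1658 against 1122, 874 and 731 CPM, a log2 change of -1.26 (SE 0.23, adjusted p = 0.00416). Myocd, the coactivator of serum response factor that switches the contractile programme on, fell by 1.06 on the log2 scale (SE 0.16, adjusted p = 0.00148). The groups did not overlap for these 3 genes, and the kinase gene Mylk, the intermediate filament gene Des, the calcium pump regulator Pln and the muscle gene Mustn1 fell by 0.89, 1.45, 1.07 and 1.05 on the log2 scale (adjusted p of 0.00141 to 0.0118). The call of Pln was lost without sham mouse 1 (-1.05).

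Among double-positive members 27 of the 28 were tested and only Synm passed (1.07% of all genes passed), with a list median of 0.14. Myl9 was at 4243, 2577 and 3445 against 3480.3, 3093 and 2239 CPM there and its groups overlapped, a log2 change of -0.27 (SE 0.21, adjusted p = 0.725). Tpm2 gave a log2 change of -0.20 (SE 0.20, adjusted p = 0.803) and Pln gave a log2 change of 0.25 (SE 0.19, adjusted p = 0.725), and neither separated the groups. Synm, which encodes synemin, a filament protein that ties desmin to the membrane, was at 54.1, 49.9 and 49.4 against 143, 112 and 99.6 CPM, a log2 change of 1.16 (SE 0.23, adjusted p = 0.0154). It passed in 10 of the 16 alternatives in which it was tested and was lost without sham mouse 1, 2 or 3 or DOCA-salt mouse 1 (1.00 to 1.20) and without the renin-rich barcodes defined below (a log2 change of 0.87, adjusted p = 0.0996). In all members Synm was at 50.1, 49.8 and 46.0 against 85.3, 56.9 and 50.5 CPM and did not pass, a log2 change of 0.26 (SE 0.24, adjusted p = 0.565).

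The promoter of Myl9 is shown because its contractile gene fell in all members and because it holds a CArG box, the motif of serum response factor. Of 28 contractile genes 24 had a promoter (250 bases before to 50 after the start) in RefSeq on GRCm38.p6, an older build than the one the counts were made on, and 3 of them (Myl9, Srf and Vcl) held a CArG box, against 1.63% of 32851 promoters. The window of Myl9 is chr2:156775214-156775513 on the plus strand, and the capitals mark the box, 161 to 152 bases before the start.
Myl9: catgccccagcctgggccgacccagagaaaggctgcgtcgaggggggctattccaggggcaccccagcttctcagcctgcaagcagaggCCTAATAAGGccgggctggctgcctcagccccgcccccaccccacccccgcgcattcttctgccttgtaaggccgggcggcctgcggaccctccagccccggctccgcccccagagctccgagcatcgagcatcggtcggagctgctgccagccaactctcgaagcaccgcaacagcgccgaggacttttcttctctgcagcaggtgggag
A match describes these letters only.

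Of 17 pericyte genes, 13 were tested in all members, 7 fell, 1 rose and 5 did not pass, where 6.09% of all genes tested were lower and 12.2% passed, with a median of -0.92. Ndufa4l2, a mitochondrial protein that marks capillary pericytes, was at 522, 468 and 482 CPM in sham and 188, 169 and 185 CPM in DOCA-salt mice, a log2 change of -1.59 (SE 0.14, adjusted p = 0.000145). Cox4i2, the oxygen-sensing isoform of a cytochrome oxidase subunit, was at 224, 204 and 276 against 68.7, 87.0 and 63.7 CPM, a log2 change of -1.82 (SE 0.19, adjusted p = 0.000204). Both were lower in every DOCA-salt mouse. The call of Cox4i2 held in 18 of 19 alternatives, with log2 changes as small as -0.97. The transcription factor gene Ebf1 and Gucy1b1, a subunit of the nitric oxide receptor, fell by 1.20 and 1.30 on the log2 scale (adjusted p of 0.000435 to 0.00100). Foxd1, a transcription factor of the stroma from which mural cells descend, was the one that rose, a log2 change of 1.54 (SE 0.40, adjusted p = 0.0253), and its call was lost without sham mouse 2 or 3 or DOCA-salt mouse 1 or 3 (1.06 to 1.63). Of the same list 11 were tested in the double-positive members and 0 passed, with a median of -0.04. Ndufa4l2 was at 644, 584 and 669 against 481, 522 and 532 CPM there: it did not overlap between the groups, but the change of -0.36 (SE 0.16) did not pass (adjusted p = 0.453).

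Of 38 genes of receptors for vasoactive signals 22 were tested in all members, 7 fell and 1 rose (of all genes tested 6.09% fell and 6.11% rose), with a median of -0.66. Agtr1a, the main angiotensin II receptor of mouse vessels, was at 147, 172 and 163 CPM in sham and 66.4, 58.1 and 78.0 CPM in DOCA-salt mice, a log2 change of -1.40 (SE 0.17, adjusted p = 0.000413). Ednra and Ednrb, the endothelin receptors, fell by 1.66 and 1.52 on the log2 scale (adjusted p of 0.000228 to 0.00123). Of the receptors 15 were tested in the double-positive members and F2r alone passed (1.07% of all genes passed), with a median of 0.19. Agtr1a there was at 182, 210.4 and 219.9 against 157, 169 and 182 CPM, with the nearest mice of the groups almost level and a change that did not pass, a log2 change of -0.32 (SE 0.18, adjusted p = 0.556). F2r, the thrombin receptor PAR1, was at 18.02, 30.4 and 17.95 against 52.2, 82.3 and 50.8 CPM in the double-positive members, a log2 change of 1.45 (SE 0.32, adjusted p = 0.0338), and it was also higher in all members, a log2 change of 1.55 (SE 0.24, adjusted p = 0.0018). The double-positive call of F2r passed in 8 of 15 alternatives and was lost without the renin-rich barcodes defined below, a log2 change of 1.13 (adjusted p = 0.248), without the collagen-positive barcodes, a log2 change of 0.95 (adjusted p = 0.313), and without sham mouse 1 or 3 or DOCA-salt mouse 2 (1.16 to 1.34). It rested on 25 sham and 61 DOCA-salt barcodes with a UMI.

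In the nitric oxide and cGMP list 10 of 12 genes were tested, 7 fell and 1 rose (of all genes tested 6.09% fell and 6.11% rose), with a median of -0.78. Prkg1, the cGMP-dependent kinase, was at 3220.1, 3276 and 2561 against 1641, 1566 and 1974 CPM, a log2 change of -0.95 (SE 0.17, adjusted p = 0.00405). Of 27 channel and calcium genes 25 were tested and 16 fell (of all genes tested 6.09% fell), with a median of -0.98, among them Cacna1c, the pore of the L-type calcium channel, at 996, 939 and 884 against 349, 369.7 and 431 CPM, a log2 change of -1.44 (SE 0.15, adjusted p = 0.000204). The sodium-calcium exchanger gene Slc8a1, the chloride channel gene Ano1 and the potassium channel gene Kcnk3 fell by 1.07, 1.41 and 1.73 on the log2 scale (adjusted p of 0.000262 to 0.00106). Within the double-positive members, where 1.07% of all genes passed, 0 of 9 tested genes passed in the first list (median 0.04) and 1 of 22 in the other (median -0.08). That gene was Ryr2, a calcium release channel of the sarcoplasmic reticulum, at 9.01, 6.51 and 6.73 against 44.5, 58.6 and 36.0 CPM, a log2 change of 2.59 (SE 0.41, adjusted p = 0.00281). Ryr2 passed in all 15 alternatives in which it was tested, from counts of 10 UMIs in sham and 82 in DOCA-salt mice, and did not pass in all members, a log2 change of 0.98 (SE 0.41, adjusted p = 0.155). In the double-positive members it met the expression filter through its DOCA-salt levels alone.

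Of the genes named here, renin fell most in both sets. In all members Ren1 was at 6922, 3308 and 2531 CPM in sham and 234, 83.3 and 189.9 CPM in DOCA-salt mice, a log2 change of -4.80 (SE 0.45, adjusted p = 0.00016). Its double-positive level was 4799, 1030.4 and 4039.7 against 570.4, 282 and 557 CPM, a log2 change of -2.88 (SE 0.41, adjusted p = 0.00191). Every DOCA-salt mouse was below every sham mouse in both. Akr1b7, an aldo-keto reductase that juxtaglomerular cells make together with renin, was at 381, 184 and 377 against 75.4, 189.7 and 104 CPM in the double-positive members, a log2 change of -1.37 (SE 0.31, adjusted p = 0.0361), and fell by 2.73 on the log2 scale (SE 0.30, adjusted p = 0.000262) in all members. Its groups overlapped in the double-positive members, where the call held in 6 of 17 alternatives and was lost, among others, without sham mouse 1 or 3 or DOCA-salt mouse 1 or 3 (-1.25 to -1.13). Without the barcodes of highest Scrublet score (a doublet score) the double-positive call of Ren1 was lost as well (a log2 change of -1.90, adjusted p = 0.13). The renin cell list held 4 genes, of which 3 were tested. All 3 fell in all members (6.09% of all genes tested fell) and 2 in the double-positive members (0.436% fell), where Crip1, a LIM-domain protein, gave a log2 change of -0.26 (SE 0.22, adjusted p = 0.749).

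The number of barcodes with renin overlapped between the groups. Among the double-positive members 16, 14 and 26 barcodes of the sham mice and 13, 20 and 17 of the DOCA-salt mice held a Ren1 UMI. With at least 10 UMIs, called renin-rich here although the counts showed no gap at that value, the counts were 9, 5 and 14 against 5, 7 and 7 (exact permutation p = 0.5), and with at least 100 they were 5, 1 and 7 against 1, 0 and 0. The highest barcode held 824, 359 and 718 Ren1 UMIs in the sham mice and 167, 35 and 62 in the DOCA-salt mice. In the barcodes with at least 10 UMIs, Ren1 took 40149, 19576 and 28960 CPM in sham against 4905, 2875 and 3758 CPM in DOCA-salt mice, and Akr1b7 took 1810, 987 and 1713 against 18.4, 288 and 67.1 CPM. These levels are a description, with no test, since Ren1 chose the barcodes. Their median UMIs were 4971, 3868 and 3483 in sham and 8869, 6152 and 8780 in DOCA-salt mice, so that a deeper DOCA-salt barcode reached 10 Ren1 UMIs at a lower CPM. One barcode carried 75.6% of the double-positive Ren1 UMIs of sham mouse 2.

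Without the double-positive barcodes of 10 or more Ren1 UMIs Akr1b7 had a log2 change of -0.43 (adjusted p = 0.653), and no test of Ren1 itself can be read there, since removal by its own count bounds what is left. Outside the double-positive set the highest member of sham mouse 1 held 2019 Ren1 UMIs and that of sham mouse 2 held 859. After thinning each barcode to 1000 UMIs, 14.5% ± 4.93 of the double-positive members of the sham mice and 13.9% ± 3.02 of those of the DOCA-salt mice were expected to hold a Ren1 UMI (exact permutation p = 0.9, adjusted 0.9 over 6 genes). Unthinned, the shares were 19.8% and 20.7%. Proximal tubule barcodes, which make no renin, gave thinned shares of 0.433% in sham and 0.0526% in DOCA-salt mice and unthinned shares of 3.23% and 0.346%, at median depths of 9173 to 12459 and 9674 to 12942 UMIs.

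**Figure D3:**
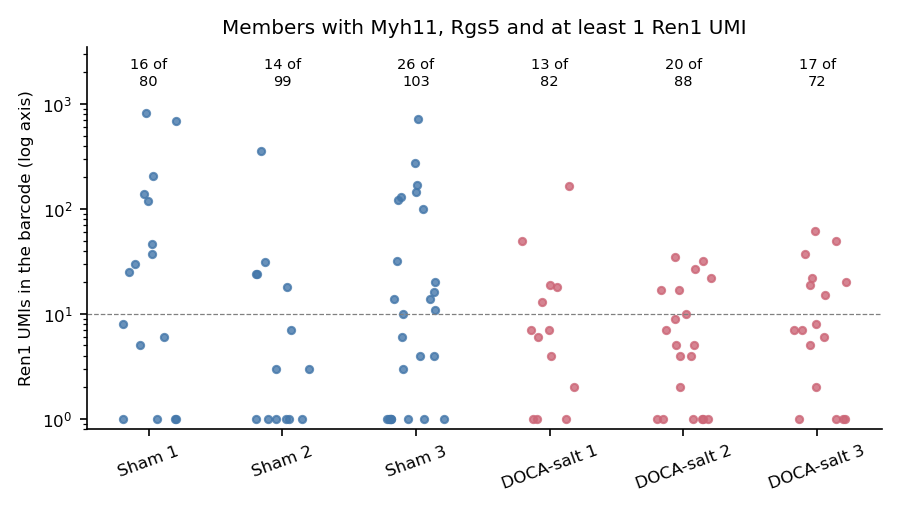
Ren1 UMIs (log axis) of each double-positive member with at least 1 Ren1 UMI, by mouse, with the number of such barcodes above. Sham mice have barcodes up to 824 UMIs, and 2 of the 3 DOCA-salt mice have none above 62. The dashed line is at 10 UMIs.

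Ren1 lies at chr1:133278248-133288063 on the plus strand of GRCm39, with no other counted gene overlapping it, so its UMIs are not shared with a neighbour on the annotation. Its promoter is shown as that of the gene with the largest fall. In GRCm38.p6 the window is chr1:133350424-133350723 on the plus strand, and the capitals mark TATAAA, 29 to 24 bases before the start. This motif was searched on both strands and is in 13.6% of all 32851 promoters.
Ren1: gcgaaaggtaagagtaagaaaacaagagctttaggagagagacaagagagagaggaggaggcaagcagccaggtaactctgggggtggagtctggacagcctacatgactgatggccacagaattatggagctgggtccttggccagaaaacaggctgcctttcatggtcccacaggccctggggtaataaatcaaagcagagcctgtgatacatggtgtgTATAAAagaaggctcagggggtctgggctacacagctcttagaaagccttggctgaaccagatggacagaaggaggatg

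Hopx, a homeodomain protein without DNA binding that restrains serum response factor in muscle, fell as well. It was at 417, 487 and 270.5 CPM in sham and 96.7, 59.4 and 57.4 CPM in DOCA-salt mice in all members, a log2 change of -2.60 (SE 0.26, adjusted p = 0.000186). The level of Hopx in the double-positive members was 475, 568 and 404 against 253, 191 and 189 CPM, a log2 change of -1.24 (SE 0.18, adjusted p = 0.00227), and it passed in all 17 alternatives. The groups did not overlap in either set. The antisense gene Hopxos overlaps Hopx on the other strand. The promoter of Hopx is shown because it is among the few that hold a CArG box, in capitals 83 to 74 bases before the start, and its window is chr5:77115074-77115373 on the minus strand of GRCm38.p6.
Hopx: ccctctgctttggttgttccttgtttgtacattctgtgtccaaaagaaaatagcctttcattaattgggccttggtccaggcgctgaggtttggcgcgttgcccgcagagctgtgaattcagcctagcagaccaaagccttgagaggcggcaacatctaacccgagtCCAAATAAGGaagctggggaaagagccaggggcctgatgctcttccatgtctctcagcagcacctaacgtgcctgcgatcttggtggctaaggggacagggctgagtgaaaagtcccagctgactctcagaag

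Other genes that fell had various roles. Peg3, an imprinted zinc finger gene, was at 198, 293 and 238 against 110.2, 102 and 123 CPM in the double-positive members, a log2 change of -1.17 (SE 0.19, adjusted p = 0.00398), and fell by 1.52 on the log2 scale (SE 0.18, adjusted p = 0.000415) in all members. Lmo1, a LIM-only transcription cofactor, was at 133, 111 and 85.3 against 59.9, 47.4 and 42.4 CPM, a log2 change of -1.18 (SE 0.24, adjusted p = 0.0179). Myh6, the alpha heavy chain of heart myosin, was at 63.1, 56.4 and 42.6 against 7.73, 12.6 and 8.47 CPM, a log2 change of -2.46 (SE 0.35, adjusted p = 0.00191), from 40 sham and 11 DOCA-salt barcodes. The cell cycle inhibitor Cdkn1a and the clock repressor Nr1d1 fell by 1.04 and 2.22 on the log2 scale (adjusted p of 0.00632 to 0.00893) in the double-positive members, and the guanine nucleotide exchange factor gene Dock4, the collagen gene Col4a6 and the potassium channel gene Kcnb2 fell by 1.37, 1.32 and 1.20 on the log2 scale (adjusted p of 0.0135 to 0.0317). As each mouse was left out, double-positive calls were lost for Lmo1 without sham mouse 1 or DOCA-salt mouse 2 or 3 (-1.14 to -1.01), Cdkn1a without sham mouse 1 or DOCA-salt mouse 2 (-0.96 to -0.92), Nr1d1 without sham mouse 1 (-2.26), Dock4 without sham mouse 1 or 3 or DOCA-salt mouse 1 (-1.39 to -1.16), Col4a6 without sham mouse 1 or 3 or DOCA-salt mouse 2 (-1.36 to -1.02) and Kcnb2 without sham mouse 1, 2 or 3 or DOCA-salt mouse 1 or 2 (-1.27 to -0.89). Leaving out the collagen-positive barcodes, defined below, ended those of Lmo1, Cdkn1a, Col4a6 and Kcnb2 (log2 changes of -1.01, -0.66, -1.02 and -0.70, adjusted p of 0.0538 to 0.536), and leaving out the renin-rich barcodes ended those of Lmo1, Dock4 and Kcnb2 (log2 changes of -1.01, -1.24 and -1.18, adjusted p of 0.055 to 0.0622). Dock4 did not pass in all members, a log2 change of -0.43 (SE 0.17, adjusted p = 0.138). In all members Kcnb2, the centromere histone gene Cenpa and the genes Ripor2 and Tenm2 fell by 2.07, 2.02, 1.89 and 1.86 on the log2 scale (adjusted p of 0.00016 to 0.00195). Kcnb2 and Ripor2 each passed there in 18 of 19 alternatives, with log2 changes as small as -1.10 and -0.61, and Cenpa and Tenm2 passed in all 19.

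Some of the falls were of genes known from the proximal tubule. Among double-positive members Kap, a kidney androgen-regulated protein of the proximal tubule, was at 1854, 1288 and 3063 against 752, 392 and 807 CPM, a log2 change of -1.74 (SE 0.29, adjusted p = 0.00569). The tubule genes Klk1, Nat8f1 and Slc27a2 and the metallothionein gene Mt1 fell by 1.86, 1.66, 1.22 and 1.56 on the log2 scale (adjusted p of 0.013 to 0.0334). The 11 proximal tubule markers together took 5250, 3178 and 7280 CPM in the double-positive members of sham mice and 2401, 3526 and 4334 CPM in those of DOCA-salt mice, which overlapped, and 2 of the 11 passed, both lower (0.436% of all genes tested were lower). Calls were lost for Klk1 without sham mouse 1 or 3 or DOCA-salt mouse 1 (-1.78 to -1.51), Nat8f1 without sham mouse 1 or 3 or DOCA-salt mouse 1 (-1.67 to -1.29), Slc27a2 without sham mouse 1 or 3 or DOCA-salt mouse 1 or 2 (-1.31 to -1.08) and Mt1 without sham mouse 1 or 3 or DOCA-salt mouse 1 or 3 (-1.57 to -1.22), and for Slc27a2 also without the collagen-positive barcodes (a log2 change of -0.99, adjusted p = 0.136). The change of Kap in endothelial cells of the same mice was -1.06 (SE 0.33, adjusted p = 0.0866) and the difference -0.64 (SE 0.13, adjusted p = 0.0154). Klk1 changed by -1.46 (SE 0.26, adjusted p = 0.00832) in endothelial cells and Nat8f1 by -1.16 (SE 0.25, adjusted p = 0.0194), and the differences did not pass, at -0.42 (SE 0.28, adjusted p = 0.673) and -0.51 (SE 0.23, adjusted p = 0.442). The part of tubule RNA in these falls was not tested.

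Matrix genes rose in both sets. Of 30 interstitial matrix genes 28 were tested in all members and 27 rose, with a median of 1.94 (6.11% of all genes tested were higher). Restricted to double-positive members 19 were tested and 8 rose, with a median of 1.64 (0.631% of all genes tested were higher). Mgp, the matrix Gla protein that keeps vessel walls from calcifying, was at 402, 407 and 343 CPM in sham and 5516, 4525 and 6236 CPM in DOCA-salt mice in all members, a log2 change of 3.68 (SE 0.19, adjusted p = 4.35e-06). Restricted to double-positive members it was at 365, 399 and 469 against 2108, 5400.2 and 1277 CPM, a log2 change of 2.79 (SE 0.37, adjusted p = 0.00162). Fn1, fibronectin, was at 85.6, 39.05 and 71.8 against 586, 382 and 263 CPM in the double-positive members, a log2 change of 2.60 (SE 0.31, adjusted p = 0.000526). Col3a1, a fibrillar collagen of vessel walls, was at 58.6, 99.8 and 65.1 against 299.7, 495 and 360.1 CPM, a log2 change of 2.33 (SE 0.24, adjusted p = 0.000143). No sham mouse reached a DOCA-salt mouse for these 3 genes. The collagen genes Col1a1, Col6a3 and Col12a1 rose by 3.07, 1.64 and 1.68 on the log2 scale (adjusted p of 0.00227 to 0.013) there, and the heparan sulfatase gene Sulf1 and the chaperone gene Clu rose by 2.904 and 1.62 on the log2 scale (adjusted p of 0.00663 to 0.0154). The mean of Clu over whole libraries went from 99.3 to 217 CPM, and its difference from endothelial cells (0.64, SE 0.33, adjusted p = 0.525) did not pass.

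Few barcodes carried several of these rises. Of the double-positive members 19 in sham and 40 in DOCA-salt mice held 3 or more UMIs of Col1a1, Col1a2 and Dcn, and in the DOCA-salt mice they carried 83.2% of the Mgp, 85.9% of the Fn1 and 80.4% of the Col3a1 UMIs. A single barcode held 20.6% of the Mgp and 34.0% of the Col1a1 UMIs of that group. Without the collagen-positive barcodes Mgp had a log2 change of 0.87 (adjusted p = 0.118), Fn1 had a log2 change of 0.40 (adjusted p = 0.757) and Col3a1 had a log2 change of 0.71 (adjusted p = 0.249), so that the 3 calls were lost. Removal by collagen counts bounds what is left of genes held by the same barcodes. For matrix-linked rises a call lost in this way is therefore no test of whether mural cells took part in the rise. Those of Col6a3, Col12a1 and Clu (log2 changes of 0.59, 0.49 and 1.497, adjusted p of 0.0668 to 0.755) were lost there too. Col1a1, a gene of the criterion, and Sulf1 were not tested there. Without the renin-rich barcodes Fn1, Col1a1, Col6a3, Col12a1, Sulf1 and Clu (log2 changes of 1.78, 2.74, 1.03, 1.42, 2.27 and 1.36, adjusted p of 0.07 to 0.178) did not pass. As each mouse was left out, calls were lost for Col1a1 without sham mouse 1 or 3 (2.82 to 3.00), Col12a1 without sham mouse 1 or 3 or DOCA-salt mouse 2 (1.45 to 1.67) and Sulf1 without sham mouse 1 or 2 or DOCA-salt mouse 2 (2.00 to 2.67). Without DOCA-salt mouse 2 the change of Mgp was 1.99 and that of Col1a1 1.95, and without sham mouse 3 that of Sulf1 was 3.98. Of the 71 double-positive calls 25 passed without the collagen-positive barcodes, and 44 passed without the renin-rich barcodes. Fibroblast barcodes of the DOCA-salt mice had 25329 CPM of Mgp and the collagen-rich members 16173 CPM, against 3261 CPM in the double-positive members, and the summed level of 10 fibroblast markers in the double-positive members was 115 to 267 CPM in sham and 290.0 to 1169 CPM in DOCA-salt mice, with Dpt and Scara5 at 0. Their part in the result was not tested.

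Lox passed with and without those barcodes. This gene encodes lysyl oxidase, which crosslinks collagen and elastin, and it was at 33.8, 34.7 and 29.2 CPM in sham and 176, 102 and 114 CPM in DOCA-salt mice in the double-positive members, a log2 change of 1.94 (SE 0.27, adjusted p = 0.00187). It was found in 36 sham and 111 DOCA-salt barcodes, no barcode held more than 6.82% of a group's UMIs, and without the collagen-positive barcodes it had a log2 change of 2.09 (adjusted p = 0.00111). All 16 alternatives in which it was tested passed. In all members the change was smaller, a log2 change of 0.99 (SE 0.20, adjusted p = 0.00679), and it did not pass without barcodes with endothelial or fibroblast marker counts (a log2 change of 0.79, adjusted p = 0.0679). The secreted gene Thbs1, which activates latent TGF-beta, was at 27.0, 26.0 and 58.4 against 182, 230.1 and 125 CPM in the double-positive members, a log2 change of 2.23 (SE 0.31, adjusted p = 0.00187), and without the collagen-positive barcodes it still passed, a log2 change of 1.39 (adjusted p = 0.0258). Thbs1 also changed in endothelial cells, by 0.90 (SE 0.14, adjusted p = 0.00395), and the difference of 1.36 (SE 0.35, adjusted p = 0.0629) did not pass. Its mean over whole libraries went from 36.5 to 64.4 CPM.

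Of 25 genes of the TGF-beta and BMP pathway, 22 were tested in all members, 6 rose and 2 fell, with a median of 0.38 (of all genes tested 6.11% rose and 6.09% fell). In the double-positive members 21 were tested and Tgfb3, Ccn2 and Thbs1 rose, with a median of 0.40 (0.631% of all genes tested rose). Ccn2, connective tissue growth factor, a common target of this pathway, was at 182, 269 and 135 against 766, 621 and 441 CPM, a log2 change of 1.60 (SE 0.24, adjusted p = 0.00227). Without the collagen-positive barcodes it did not pass, a log2 change of 0.99 (adjusted p = 0.051). The ligand gene Tgfb3 was at 42.8, 30.4 and 31.4 against 96.7, 68.3 and 84.7 CPM, a log2 change of 1.19 (SE 0.26, adjusted p = 0.0338), and passed in 6 of 16 alternatives. It was lost without sham mouse 1, 2 or 3 or DOCA-salt mouse 1 or 3 (1.06 to 1.37), without the collagen-positive barcodes (a log2 change of 0.96, adjusted p = 0.166), without the renin-rich barcodes (a log2 change of 1.04, adjusted p = 0.114), and without the highest Scrublet scores (1.14, adjusted p = 0.0508), and it did not pass in all members, a log2 change of 0.40 (SE 0.28, adjusted p = 0.413). The ligand gene Tgfb1 rose in all members, a log2 change of 1.67 (SE 0.23, adjusted p = 0.000979), and Id1, a target of BMP signals, fell by 0.98 on the log2 scale (SE 0.25, adjusted p = 0.0245) there. Without barcodes with endothelial or fibroblast marker counts the calls of Tgfb1 and Id1 (log2 changes of 0.46 and -0.76, adjusted p of 0.0923 to 0.506) were lost, and that of Id1 was also lost without sham mouse 2 or DOCA-salt mouse 2 or 3 (-0.93 to -0.60).

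Some of the largest rises over all members were of further matrix genes. Mfap5, a microfibril protein, and Ltbp2, a latent TGF-beta binding protein, each had 2 UMIs in the sham sums, and the pooled ratios of DOCA-salt to sham were 150.2 (95% counting interval 41.5 to 1242) and 149.6 (41.3 to 1237). Both sham UMIs of Mfap5 were in 1 barcode of sham mouse 2, and its fitted log2 change ranged from 6.37 to 10.8 as each mouse was left out, the highest without that mouse, where no sham UMI is left. That of Ltbp2 ranged from 6.31 to 7.35. Timp1, an inhibitor of matrix metalloproteinases, was at 1.67, 3.22 and 1.39 against 141, 189 and 264 CPM, a log2 change of 6.38 (SE 0.42, adjusted p = 2.26e-05). Mfap5 stood at 535 CPM in the collagen-rich members of the DOCA-salt mice and at 36.3 CPM in the double-positive ones, and Timp1 at 648 and 62.1 CPM. The collagen genes Col15a1 and Col8a1, the chemokine gene Cxcl14 and the growth factor gene Ptn rose by 6.15, 4.04, 4.42 and 3.74 on the log2 scale (adjusted p of 3.32e-05 to 0.0033) in all members, of which Ptn (a log2 change of 0.90, adjusted p = 0.294) did not pass without barcodes with endothelial or fibroblast marker counts. Col15a1 and Timp1 had 4 UMIs each in the sham sums, with pooled ratios of 82.5 (95% counting interval 32.1 to 303) and 95.4 (37.2 to 351), and the change of Col15a1 was 7.42 without sham mouse 3. Cxcl14 had 8 UMIs there, and its change ranged from 3.78 to 4.87 as each mouse was left out. Mfap5, Ltbp2, Timp1, Col15a1 and Cxcl14 met the expression filter through their DOCA-salt levels alone. Of 11 elastic fiber genes 10 were tested and 5 rose in all members, with a median of 1.41 (6.11% of all genes tested rose). In the double-positive members 0 of 5 passed, with a median of 0.58 (1.07% of all genes passed). Of 16 basement membrane genes 3 rose and 3 fell in all members (of all genes tested 6.11% rose and 6.09% fell). Col4a1 was among the rises (a log2 change of 0.83 (SE 0.18, adjusted p = 0.0112)) and Lamb2 among the falls (a log2 change of -1.07 (SE 0.21, adjusted p = 0.00678)), and 0 of 13 passed in the double-positive members. The call of Col4a1 was lost without DOCA-salt mouse 3 (0.70) and without barcodes with endothelial or fibroblast marker counts (a log2 change of 0.69, adjusted p = 0.0513).

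Genes linked to a modulated, less contractile smooth muscle state were partly higher. Of 13 such genes 12 were tested in all members and 7 rose, with a median of 0.90 (6.11% of all genes tested rose). In the double-positive members 8 were tested and Spp1, Vim and S100a6 rose, with a median of 0.70 (0.631% of all genes tested rose). Spp1, osteopontin, was at 92.4, 143 and 135 against 331, 646 and 756 CPM in the double-positive members, a log2 change of 2.17 (SE 0.26, adjusted p = 0.00057), and passed in all 17 alternatives. Spp1 also changed in endothelial cells, by 2.58 (SE 0.29, adjusted p = 0.00119), with a difference of -0.32 (SE 0.42, adjusted p = 0.869), and its mean over whole libraries went from 1069 to 4483 CPM. The part of free RNA in its rise was not tested. In all members it was at 514, 1235 and 664 against 6427, 4403 and 7531 CPM, and the Epcam and Wt1 members of the DOCA-salt mice stood highest, at 9342 and 9050 CPM against 581 CPM in the double-positive members. S100a6, a calcium-binding protein, was at 252, 279.8 and 209 against 580.1, 543 and 521 CPM, a log2 change of 1.10 (SE 0.17, adjusted p = 0.00254). Vim, the filament vimentin, was at 825, 668 and 622 against 1535, 1222 and 1243 CPM, a log2 change of 0.87 (SE 0.18, adjusted p = 0.0171). The mesangial list gave 1 of 4 genes in the double-positive members, the protease inhibitor Serpine2 at 178, 273 and 175 against 456, 502 and 491 CPM, a log2 change of 1.17 (SE 0.18, adjusted p = 0.00312), and 0 of 5 in all members. Of all genes tested 1.07% passed in the double-positive members and 12.2% in all members. In endothelial cells Serpine2 changed by 1.32 (SE 0.27, adjusted p = 0.0163), and the difference was -0.10 (SE 0.23, adjusted p = 0.937). Without the collagen-positive barcodes S100a6, Vim and Serpine2 (log2 changes of 0.56, 0.63 and 0.92, adjusted p of 0.0538 to 0.254) did not pass, and as each mouse was left out calls were lost for Vim without sham mouse 1, 2 or 3 or DOCA-salt mouse 1 (0.75 to 1.00) and Serpine2 without sham mouse 1 (1.07).

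**Figure D4:**
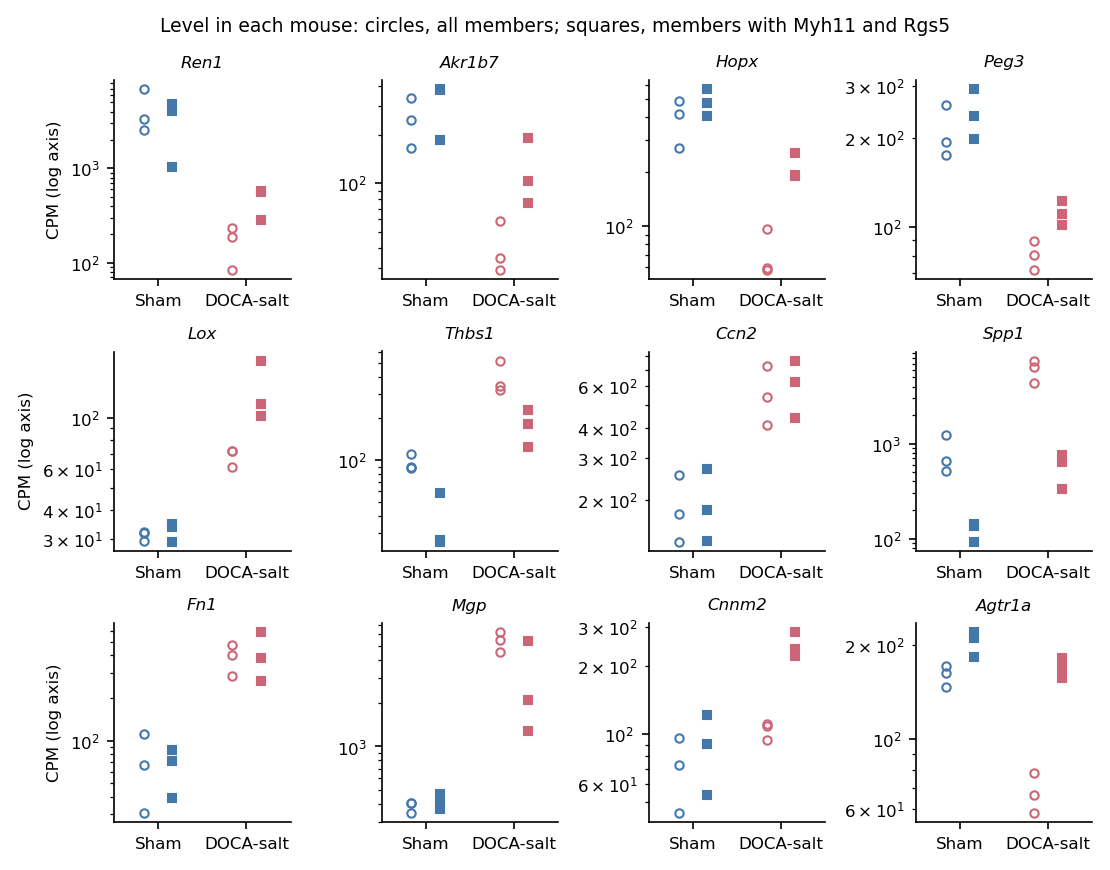
Level in CPM (log axis) of 12 genes in each of the 3 sham (blue) and 3 DOCA-salt (red) mice, for all members (circles) and double-positive members (squares). Ren1, Hopx and Peg3 are lower and Lox, Thbs1, Ccn2, Spp1, Fn1 and Mgp higher in every DOCA-salt mouse in both sets, while Agtr1a is far lower in all members and only slightly lower in the double-positive ones.

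Of 26 inflammatory genes 20 were tested in all members and 11 rose, with a median of 1.20 (6.11% of all genes tested rose). The adhesion gene Vcam1 was at 15.02, 30.6 and 4.18 against 205, 171 and 216 CPM and the chemokine gene Cxcl1 at 13.3, 11.3 and 6.97 against 95.6, 105 and 214 CPM, a log2 change of 3.57 (SE 0.41, adjusted p = 0.000312) for the latter. In the double-positive members of the DOCA-salt mice Vcam1 was at 9.38 CPM and Cxcl1 at 5.86 CPM, against 356 and 316 CPM in the Wt1 members. Of this list 9 genes were tested in the double-positive members (1.07% of all genes passed). The one that passed was Ptgs2, the inducible cyclooxygenase, at 4.51, 0 and 8.98 against 139, 61.4 and 42.4 CPM, a log2 change of 4.06 (SE 0.62, adjusted p = 0.00254). It was found in 2 sham and 26 DOCA-salt barcodes and passed in all 14 alternatives in which it was tested, from 3.45 without DOCA-salt mouse 1 or sham mouse 2 to 5.02 without sham mouse 3. Ptgs2 met the expression filter there through its DOCA-salt levels alone. Pla2g4a, the phospholipase that frees arachidonic acid for this enzyme, rose as well, a log2 change of 2.08 (SE 0.38, adjusted p = 0.00981). The call of Pla2g4a was lost in 4 of its alternatives, without the collagen-positive barcodes (a log2 change of 1.97, adjusted p = 0.051), and without sham mouse 1 or 3 or DOCA-salt mouse 2 (1.77 to 2.18).

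A few genes that were nearly absent from the sham sums appeared in the double-positive members of DOCA-salt mice. Itih4, an inter-alpha-trypsin inhibitor chain, went from 2 UMIs in the sham sums to 59 in those of DOCA-salt mice, a pooled ratio of 23.3 (95% counting interval 6.18 to 197), in 2 and 38 barcodes. Rgs17, a brake on G protein signals, had 3 and 72 UMIs, a ratio of 19.0 (6.24 to 94.3), in 1 and 39 barcodes. All 3 sham UMIs of Rgs17 were from sham mouse 2, and its fitted log2 change ranged from 3.56 to 7.45 as each mouse was left out, the highest without that mouse, where no sham UMI is left and the fitted value is no bound. Both passed in every alternative in which they were tested (adjusted p = 0.00281 and 0.00237 by edgeR). Itih4, Rgs17 and Trem2, the next gene, met the expression filter through their DOCA-salt levels alone. Their adjusted p-values and passed alternatives are therefore a description and no independent support. Trem2, a receptor known from macrophages, had 0 and 99 UMIs and was at least 26.1-fold higher against a floor of 3 UMIs over the sham group, with 126, 32.1 and 23.3 CPM in the DOCA-salt mice. Its call was lost without sham mouse 1 (adjusted p = 0.052 by edgeR). As each mouse was left out its fitted log2 change ranged from 6.83 to 8.28, and with no sham UMI this value is no bound. Trem2 came from 12 barcodes, of which 9 held at least 7 Ren1 UMIs. Of 5 macrophage genes checked in the 12 barcodes, Tyrobp, C1qa and C1qb had 0 UMIs and Lyz2 and Csf1r 1 each. The listed macrophage markers C1qc, Cd74 and Fcer1g were not checked there, and the rule itself admits no barcode with a Ptprc UMI. Of the Trem2 UMIs 73.7% were in 8 of the renin-rich barcodes. The 40 collagen-positive barcodes carried 91.9%, an overlapping share. Cnnm2, a magnesium transport protein, was at 90.1, 121 and 53.9 against 238, 223 and 284 CPM, a log2 change of 1.44 (SE 0.23, adjusted p = 0.00323), and passed in all 17 alternatives. In all members Cnnm2 did not pass, a log2 change of 0.42 (SE 0.23, adjusted p = 0.288).

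Genes of the corticosteroid response did not move one way. The mineralocorticoid receptor gene Nr3c2, on which DOCA acts, was at 95.1, 139.9 and 116 against 110.5, 94.0 and 79.7 CPM in all members, a log2 change of -0.45 (SE 0.19, adjusted p = 0.173), and its groups overlapped. Of 14 receptor and response genes 2 rose and 4 fell in all members (of all genes tested 6.11% rose and 6.09% fell), with a median of 0.05. Hsd11b1, which regenerates glucocorticoid, and Fkbp5, a glucocorticoid target, rose by 3.70 and 1.42 on the log2 scale (adjusted p of 0.00197 to 0.0203), while the clock and steroid target gene Per1 fell by 1.12 on the log2 scale (SE 0.20, adjusted p = 0.00392). The call of Fkbp5 was lost without sham mouse 1 or 3 or DOCA-salt mouse 3 (1.14 to 1.29), and also without barcodes with endothelial or fibroblast marker counts (a log2 change of 0.74, adjusted p = 0.268). Hsd11b1 had 4 UMIs in the sham sums, and its change was 5.08 without sham mouse 1 and 3.15 without sham mouse 2. In the DOCA-salt mice Hsd11b1 stood at 86.7 CPM in the collagen-rich members and at 447 CPM in fibroblast barcodes. The double-positive members had 18.2 CPM of it there, against 2.96 CPM in the sham mice. The part of the collagen-rich members in its rise was not tested. In the double-positive members 1 of 11 passed, Cdkn1a (1.07% of all genes passed), and Per1 gave a log2 change of -1.02 (SE 0.25, adjusted p = 0.0663). In the Notch list 10 genes were tested in each set, among them the rule gene Notch3, which is left aside. Hey2 (a log2 change of -1.31 (SE 0.27, adjusted p = 0.00857)) and Nrarp were lower in all members (6.09% of all genes tested were lower), and no gene passed in the double-positive members. In the hypoxia list Epas1, the HIF-2 alpha gene, was at 382, 344 and 386 against 172, 163 and 160.0 CPM in all members, a log2 change of -1.31 (SE 0.15, adjusted p = 0.000262), and gave a log2 change of -0.24 (SE 0.17, adjusted p = 0.684) in the double-positive members.

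Extracellular ATP receptors and enzymes were sparse. Of 26 genes 8 were tested in all members, 2 rose and 2 fell (of all genes tested 6.11% rose and 6.09% fell). P2rx1, the ATP-gated channel of arterial smooth muscle, was at 137, 64.3 and 64.1 against 55.5, 50.7 and 42.4 CPM, a log2 change of -0.96 (SE 0.28, adjusted p = 0.0424), and Entpd1, an ectonucleotidase that breaks down ATP, fell by 0.89 on the log2 scale (SE 0.24, adjusted p = 0.0286). Each passed in 9 of 19 alternatives, and the calls were lost for P2rx1 without sham mouse 1 or DOCA-salt mouse 1, 2 or 3 (-1.06 to -0.52) and Entpd1 without sham mouse 1 or 2 or DOCA-salt mouse 2 or 3 (-0.99 to -0.58) and, without barcodes with endothelial or fibroblast marker counts, for P2rx1 and Entpd1 (log2 changes of -0.61 and -0.53, adjusted p of 0.196 to 0.213). P2rx7, the receptor of high ATP levels, was at 1.67, 1.61 and 1.39 against 13.7, 9.89 and 10.9 CPM, a log2 change of 2.67 (SE 0.55, adjusted p = 0.00802). Each of these sham levels is that of 1 UMI, so P2rx7 met the expression filter through its DOCA-salt levels alone. The summed macrophage markers were also higher in all members, at 51.5 to 80.1 CPM in sham and 172 to 280.5 CPM in DOCA-salt mice. Their part in the change of P2rx7 was not tested. Only 2 of the 26 were tested in the double-positive members, P2rx1 and Entpd1, and neither passed. Growth factor and receptor genes gave 3 rises and 0 falls among 18 in all members (of all genes tested 6.11% rose and 6.09% fell), with Pdgfb at 10.0, 20.9 and 18.1 against 56.7, 76.2 and 79.2 CPM, and 0 of 15 in the double-positive members. Of the cell cycle list 1 of 3 tested genes was higher in all members (6.11% of all genes tested were higher), and 0 of 1 passed in the double-positive members.

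Of the summed markers of other cells, those of fibroblasts and macrophages separated the groups over all members, and those of endothelial cells, podocytes, thick limb and distal tubule, and mesothelium and urothelium overlapped. The rule's limits on Pecam1, Ptprc, Pdgfra and Lum bound the endothelial, immune cell and fibroblast sums in advance, so a low or overlapping sum there is in part set by the rule. The summed fibroblast markers took 145 to 219 CPM in sham and 1107 to 1731 CPM in DOCA-salt mice, and 7 of 7 tested rose (6.11% of all genes tested rose). The 8 macrophage markers took 51.5 to 80.1 against 172 to 280.5 CPM, and 32.5 to 71.8 against 90.9 to 129.7 CPM in the double-positive members. Endothelial markers took 127 to 189.6 against 145 to 204 CPM, and the 5 podocyte markers 64.3 to 180.2 against 169 to 181 CPM, with Nphs1 and Wt1 at 0 in the double-positive members. Thick limb and distal markers took 287 to 1315 against 602 to 1594 CPM. Lymphocyte, nerve and glial, and red cell markers stayed below 10 CPM in every mouse, with Cd3d, Ms4a1 and Sox10 at 0, and mesothelial and urothelial markers took 4.82 to 15.02 against 9.75 to 78.4 CPM. The 21 immediate early and dissociation genes took 21917 to 27246 CPM in sham and 18806 to 21297 CPM in DOCA-salt mice, 1 rose and 6 fell (of all genes tested 6.11% rose and 6.09% fell), and 0 of 21 passed in the double-positive members. Their part in the results was not tested.

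Set against endothelial cells of the same mice, the change in members differed in 935 of 13373 genes (466 higher, 3.48%, and 469 lower, 3.51%, together 6.99%), and that in the double-positive members in 183 of 12234 (104 higher, 0.85%, and 79 lower, 0.646%, together 1.5%), in a model with the mouse as a block. Lox changed by -0.42 (SE 0.45, adjusted p = 0.652) in endothelial cells, and the difference was 2.41 (SE 0.40, adjusted p = 0.00239). For Fn1 the endothelial change was 0.06 (SE 0.45, adjusted p = 0.957) and the difference 2.74 (SE 0.35, adjusted p = 0.00022), and for Ccn2 they were 0.09 (SE 0.26, adjusted p = 0.891) and 1.495 (SE 0.20, adjusted p = 0.000347). Vim and S100a6 had endothelial changes of -0.71 (SE 0.16, adjusted p = 0.0258) and -0.64 (SE 0.24, adjusted p = 0.15), with differences of 1.58 (SE 0.16, adjusted p = 3.18e-05) and 1.74 (SE 0.19, adjusted p = 3.51e-05). The collagen genes differed among themselves. Col12a1 changed by -1.77 (SE 0.20, adjusted p = 0.00124) in endothelial cells, a difference of 3.43 (SE 0.31, adjusted p = 1.03e-05), and Col3a1 changed by 5.47 (SE 0.55, adjusted p = 0.000871), a difference of -2.98 (SE 0.70, adjusted p = 0.0361). Col1a1 changed by 5.00 (SE 0.69, adjusted p = 0.00221) in endothelial cells, against 3.07 in the double-positive members, and its difference did not pass (-1.88, adjusted p = 0.648). Ren1 changed by -5.83 (SE 1.20, adjusted p = 0.0156) in endothelial cells, against -2.88 in the double-positive members. For Ren1 the difference did not pass either (2.49, adjusted p = 0.0868), at whole-library levels that fell too, from a mean of 54.0 to 3.95 CPM. The same comparison with fibroblasts was not made, since only 1 sham mouse had 10 or more fibroblast barcodes.

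The double-positive members were also divided by 4 mural genes. Barcodes with Pln or Cnn1, genes of contractile smooth muscle, and without Ndufa4l2 or Cox4i2 numbered 83, those with the reverse numbered 143, 233 held both and 65 neither. These groups were set after the data were seen and are described without a test. The median mitochondrial share was higher on the contractile side in 6 of 6 mice, at 10.1% to 27.8% against 5.29% to 11.3%. Median depth was lower on that side in the 3 sham mice and higher in the 3 DOCA-salt mice, at 2412.5 to 8398.5 UMIs against 3656 to 6844.5. Their part in the values below was not tested. Agtr1a was at a mean of 8.23 CPM ± 7.88 (SD over 6 mice) on the contractile side and 454 ± 62.0 on the pericyte side, and it was higher on the pericyte side in 6 of 6 mice. Ednrb was at 64.5 ± 25.1 against 499 ± 146 CPM and Epas1 at 223 ± 70.1 against 626 ± 31.6 CPM, both in 6 of 6 mice. Higher on the contractile side in 6 of 6 mice were Itga8, an integrin, at 434 ± 232 against 38.996 ± 26.2 CPM, Adra1a, an alpha-1 adrenergic receptor, at 374 ± 164 against 41.3 ± 30.7 CPM, P2rx1 at 259 ± 106 against 27.3 ± 17.7 CPM and Npy1r, a neuropeptide Y receptor, at 226 ± 78.7 against 38.8 ± 19.7 CPM. So was Gata3, at 135 ± 71.1 against 7.02 ± 13.1 CPM, and Itga8 and Gata3 are both of the mesangial list. In the 65 barcodes with neither pair, Itga8 was at 302, Adra1a at 426, P2rx1 at 120, Npy1r at 77.4 and Gata3 at 72.7 CPM. High Adra1a was thus not particular to the contractile side. These genes were named after their values were seen. The desmin gene Des, of the contractile list, was higher on the pericyte side in 6 of 6 mice (85.0 ± 37.6 against 337 ± 114 CPM). The side with more Ren1 was the contractile one in 3 mice and the pericyte one in 3.

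**Figure D5:**
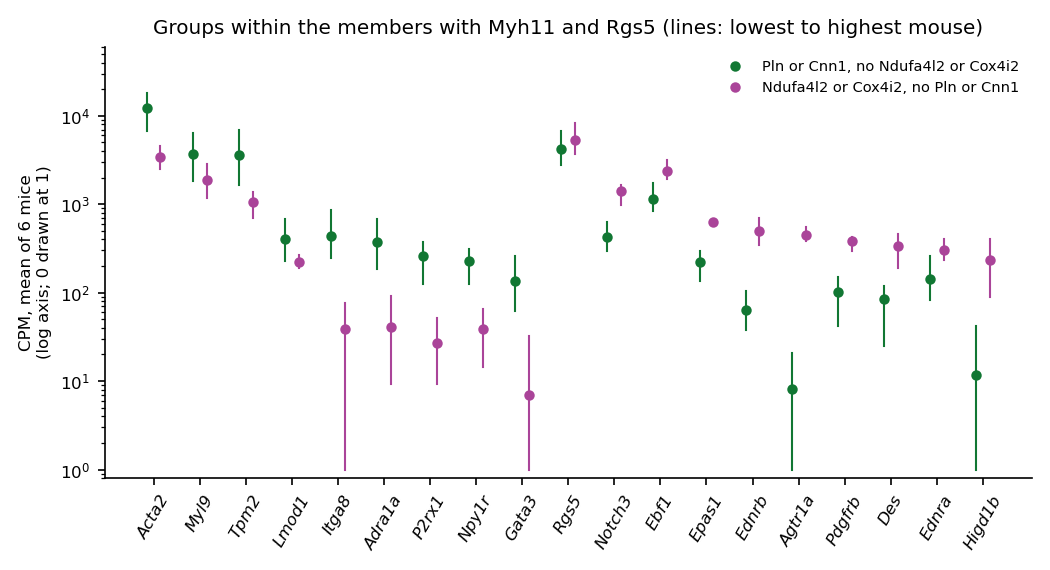
Level in CPM (log axis, 0 drawn at 1) of 19 genes in double-positive barcodes with Pln or Cnn1 only (green) and with Ndufa4l2 or Cox4i2 only (purple). Points are means over 6 mice and lines run from the lowest to the highest mouse; the lines of Agtr1a, Ednrb, Itga8 and Adra1a do not overlap between the sides.

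The shares of these sides overlapped between the groups. The contractile side took 14.8% ± 2.02 of the double-positive members in sham and 17.2% ± 6.17 in DOCA-salt mice, and the pericyte side 28.7% ± 5.42 and 25.2% ± 2.85. After thinning to 1000 UMIs, the share of double-positive members expected to hold a UMI of Pdgfrb was 19.7% ± 2.56 in sham and 22.2% ± 1.23 in DOCA-salt mice, of Cnn1 16.6% ± 2.58 and 15.5% ± 1.73, of Itga8 11.7% ± 4.00 and 16.6% ± 2.32, of Kcnj8, a potassium channel of pericytes, 1.36% ± 0.947 and 2.61% ± 0.703, and of Col1a1 1.74% ± 0.503 and 5.93% ± 1.39. Only Col1a1 separated the groups (exact permutation p = 0.1, adjusted 0.4 over 6 genes). In all members Ren1, Cnn1 and Col1a1 separated them (exact permutation p = 0.1, adjusted 0.2), with Col1a1 at 1.61% ± 0.417 against 17.7% ± 3.94 and Cnn1 at 14.5% ± 2.49 against 10.1% ± 1.79. The background share of Col1a1 in proximal tubule barcodes was 0.0501% in sham and 0.856% in DOCA-salt mice, and that of the other genes at most 0.433%. Unthinned, Col1a1 was found in 5.78% and 29.6% of all members and in 6.395% and 15.7% of the double-positive ones. Pdgfrb and Kcnj8 also separated the groups in both sets when unthinned, where depth differs between the groups. Pdgfrb was found in 53.8% and 67.8% of all members and 55.3% and 70.7% of the double-positive ones. The shares of Kcnj8 were 3.51% and 6.47%, and 4.04% and 8.95%.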

How the data were processed

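Single cells of kidneys from 3 sham and 3 DOCA-salt mice were sequenced with 1 library per mouse. The count matrices hold raw UMI counts per gene and barcode, which the authors made with Cell Ranger on GRCm39 and deposited after cell calling and before their filters. The submitters' processing notes give Cell Ranger 9.0.0, Seurat 4.0.0 and R 4.0.3, while a file header names Cell Ranger 8.0.1. Libraries held 93172739 to 137819127 UMIs. Members held 599361 to 717212 UMIs per sham mouse and 1743299 to 2426276 per DOCA-salt mouse, and intervals cover counting error only. Their median mitochondrial share was 9.55% to 12.75% in sham and 7.49% to 8.04% in DOCA-salt mice. In the double-positive members it was 9.39% to 13.1% and 8.50% to 8.91%. The part of this difference in the results was not tested.

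Members and gene lists were chosen with earlier results of these data known. Counts were summed over the members of a mouse, genes were kept by the edgeR expression filter, and groups were compared with the quasi-likelihood test of edgeR 4.0.16 (R 4.3.3) after TMM scaling, and p-values were adjusted by Benjamini-Hochberg across the whole table. The change was compared with that in endothelial barcodes of the same mice in a model with the mouse as a block. Single values were compared by two-sided exact permutation tests (scipy 1.17.1). The genes named were those of the rule, members of the lists that passed or had the highest levels in their list, and, from the genes that passed, averaged 50 CPM or more over the mice and separated the groups, the top 10 by log2 change in each direction. Some genes that this would name are not reported here. Other genes (those named for few barcodes, those of the 2 sides and the further double-positive falls and rises) were named after their values were seen. Alternatives changed the limits on UMIs, mitochondrial UMIs, markers, doublets (Scrublet scores), the scaling, the tool (DESeq2 1.42.0) and the filters, or left out a mouse. The double-positive members and their collagen-positive barcodes were alternatives added after the data were seen. On simulated counts for 10552 genes of the comparison of all members, 98% of genes changed 4-fold and 45% of those changed 2-fold were recovered, with 6 false calls of 149. For 6603 genes of the double-positive comparison the values were 100% and 51%, with 5 of 156. The simulation gave every gene the same dispersion and let no barcode dominate a gene, so these rates need not hold for the real counts. Promoters came from RefSeq (GRCm38.p6), and gene positions from an annotation on GRCm39.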

Additional observations from a re-analysis of the deposited data

Results flagged for a closer look

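The change between DOCA-salt and sham mice differed from that in endothelial cells of the same mice, by edgeR's test of the difference itself, in 466 genes with a higher and 469 with a lower value in all members, and in 104 and 79 genes in the double-positive members. The values below are differences of log2 changes, double-positive members minus endothelial cells, and their p-values are those of an alternative added after the data were seen. Among matrix and matrix-linked genes the difference was 2.74 for Fn1, 2.73 for Mgp, 3.43 for Col12a1, 2.41 for Lox, 1.495 for Ccn2 and 3.21 for Sulf1, and it was -2.98 for Col3a1, which changed more in endothelial cells. Vim had a difference of 1.58 and S100a6 one of 1.74. In the prostaglandin genes it was 6.04 for Ptgs2 and 3.50 for Pla2g4a. Cnnm2 was at 1.49, the plasminogen activator gene Plat at 1.68 and the actin-associated gene Pdlim5 at 1.31. The lower side held Peg3 at -1.47, Kap at -0.64, Mt1 at -1.30, Dock4 at -2.09 and Kcnb2 at -3.58. Kcnb2 was not among the genes tested in endothelial cells alone. Without the collagen-positive barcodes the double-positive calls of Fn1, Mgp, Col3a1, Col12a1, Ccn2, Vim, S100a6, Pla2g4a, Kcnb2, Plat and Pdlim5 were lost. The difference from endothelial cells was not tested without those barcodes.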

How the results depend on the processing

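The share of members turned from higher to lower in DOCA-salt mice with at least 4 of 6 markers (difference -0.0514 percentage points), per 100 endothelial barcodes (-1.68 members) and in double-positive members (-0.229), and ranged from 0.204 to 0.474 as each mouse was left out. For all members the number of genes higher and lower was 227 and 94 with at least 4 markers, 99 and 52 after thinning to 1000 UMIs, 349 and 419 without barcodes with endothelial or fibroblast marker counts, 342 and 426 at a mean of at least 50 CPM, and 42 and 29 in the double-positive members. Without a filter 1227 were higher. In the main run 643 and 641 of 10517 genes tested were higher and lower. Several alternatives changed the filter, the depth or the barcodes and so the number of genes tested, which is not given here. These counts are therefore no shares and do not alone show a gain or loss of signal. Library size alone in place of TMM gave 930 and 460, and DESeq2 524 and 561. Leaving out each mouse gave 363 to 707 higher and 381 to 630 lower, with 363 and 381 without sham mouse 1 and 373 and 400 without DOCA-salt mouse 3. The difference from endothelial cells gave 826 and 722 genes without a filter and 104 and 79 in the double-positive members, and 220 to 471 higher and 239 to 524 lower as each mouse was left out, with 272 and 282 without sham mouse 1, 220 and 239 without sham mouse 2 and 306 higher without DOCA-salt mouse 3.

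In the double-positive members 24 genes were higher without the renin-rich barcodes, 16 and 14 were higher and lower without collagen-positive barcodes, 12 and 4 after thinning and 141 and 72 without a filter. The main run gave 42 and 29 of 6655 genes tested. Here too the number of genes tested differed between alternatives and is not given, so these counts are no shares. Leaving out each mouse gave 15 to 48 and 5 to 45, with 15 and 5 without sham mouse 1, 45 lower without sham mouse 2, 22 and 9 without sham mouse 3 and 16 lower without DOCA-salt mouse 2. The difference from endothelial cells gave 184 and 173 there without a filter, and 64 to 151 and 40 to 93 as each mouse was left out. Ren1 turned to 0.33 without renin-rich barcodes, which were removed by their Ren1 count, so that this is no test of it, and Tpm2 ranged from -0.35 to 0.017 as each mouse was left out. Without thinning the difference in share turned to 0.936 points for Ren1 and 1.11 for Cnn1. As each mouse was left out it ranged from -3.36 to 1.496 for Ren1 and from -2.32 to 0.26 for Cnn1 in the double-positive members, and from -2.95 to 0.102 for Itga8 in all members. The causes were not tested.

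The replicate block changed the counts to 438 and 403 in all members and to 26 and 13 in the double-positive members. The numbers did not pair the mice: correlations of deviations between mice of the same number were -0.04, -0.33 and -0.22. The comparison with fibroblasts was not run, since 1 sham mouse alone had 10 or more fibroblast barcodes (22, 4 and 8 in the 3 sham mice). With 3 mice a group no exact permutation test can go below 0.1.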
